A study of Mus musculus with 2 samples.

Results

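The transcripts described here encode transcription factors of the ATF, CREB3 and C/EBP groups, in the hypothalamus of Crtc1 knockout mice and of wild-type mice. Their genes were chosen by name: Atf1, Atf2, Atf4, Atf5, Atf6, Creb3, Creb3l1, Creb3l2, Cebpb and Cebpd. A probe set was used where the platform annotation paired it with 1 of these symbols alone, which gave 23 of the 34945 probe sets paired with 1 gene and covered 9 of the 10 genes. Atf1 was the exception, because its probe set is annotated to Atf1 and to an Atf1 pseudogene together, so no value of it is given. The knockout group was 1 Affymetrix expression array of hypothalamic RNA pooled from 3 Crtc1 knockout mice, and the wild-type group was 1 array of RNA pooled from 3 wild-type mice. All animals were males of 12 weeks, kept without food for 18 h and then given food for 6 h, so no group was measured in the fasted or the freely fed state. Neither the strain nor the construction of the Crtc1 allele is stated in the labels. With 1 pooled array per genotype there was no replicate, no test between genotypes and no measure of the spread between mice.

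These proteins share a basic region and a leucine zipper (bZIP), bind DNA as dimers, and many of them recognise the cAMP response element (CRE) or sequences related to it. ATF1 and ATF2 are activated by phosphorylation, ATF1 by the cAMP pathway and ATF2 by stress-activated kinases. ATF4 and ATF5 are among the transcription factors of the integrated stress response, and their protein is set mainly by translation of the mRNA when the initiation factor eIF2 is phosphorylated. ATF6 and the CREB3 proteins lie in the membrane of the endoplasmic reticulum (ER) and are released by cleavage in the Golgi. C/EBP beta and C/EBP delta are induced by cytokines, glucocorticoids and cAMP. CRTC1 is a coactivator that binds the bZIP domain of CREB. A transcript level does not show the translation, cleavage or phosphorylation that activates most of these factors.

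The promoter windows of the members were read for the letters of the CRE, because CRTC1 acts through CREB. RefSeq windows of build GRCm38.p6 were matched for 7 of the 10 genes, 8 windows in all, each holding 250 bases before the start and 50 after it. The full CRE, TGACGTCA, was in none of the 8 windows, and it was in 1.79% of all 32851 windows. Its shorter core, TGACG on either strand, was in 4 of the 8, those of Cebpb, Creb3l2, Atf4 and Atf1, against 20.8% of all windows. Over measured genes with a window, 36.1% held this core. Of the measured genes, the 250 bases upstream of the start are shown for Cebpb, Atf4 and Creb3l2, with the core in capitals, because these windows hold it.
Cebpb (chr2:167688665-167688914, plus strand): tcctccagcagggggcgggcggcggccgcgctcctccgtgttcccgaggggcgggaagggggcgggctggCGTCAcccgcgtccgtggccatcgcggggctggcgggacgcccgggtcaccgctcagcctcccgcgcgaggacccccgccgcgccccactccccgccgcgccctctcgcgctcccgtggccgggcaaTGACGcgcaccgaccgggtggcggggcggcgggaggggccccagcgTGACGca
Atf4 (chr15:80254934-80255183, plus strand): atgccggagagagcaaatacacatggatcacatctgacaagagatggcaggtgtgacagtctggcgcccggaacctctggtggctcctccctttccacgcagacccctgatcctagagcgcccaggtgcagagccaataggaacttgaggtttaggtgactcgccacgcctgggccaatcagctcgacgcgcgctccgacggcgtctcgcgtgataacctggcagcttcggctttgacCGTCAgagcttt
Creb3l2 (chr6:37442149-37442398, minus strand): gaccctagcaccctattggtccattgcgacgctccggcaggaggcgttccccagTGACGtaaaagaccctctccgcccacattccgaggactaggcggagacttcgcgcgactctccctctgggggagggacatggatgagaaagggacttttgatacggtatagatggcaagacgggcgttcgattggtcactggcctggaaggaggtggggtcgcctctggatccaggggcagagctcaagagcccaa
The Cebpb sequence holds the core 3 times, starting 180, 53 and 7 bases before the start, the first on the opposite strand (CGTCA). The Atf4 sequence holds it once, 12 bases before the start and on the opposite strand, and a further copy lies in the window after the start. The Creb3l2 sequence holds it once, 196 bases before the start. Of these genes, Cebpb and Atf4 read higher in the knockout pool by their brightest probe sets and Creb3l2 read lower, as described further on. The log2 differences, knockout less wild type, were 0.34, 0.24 and -0.10, and a second Cebpb probe set was at -0.27. Atf2, Creb3 and Atf5, whose windows hold no core, were at 0.00, -0.03 and -0.02. Whether the core has a part in these values was not tested. A match of letters is a description and does not show that a factor binds there.

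The values are the authors' linear signal intensities, and values under the 30th percentile of an array, 20.5 for the KO pool and 20.2 for the WT pool, were raised to that floor. Every difference is the log2 value of the KO pool less that of the WT pool. Probe sets whose log2 signal, averaged over the pools, reached 5.71, the median of all probe sets, were called measured, and a gene took the value of its brightest measured probe set. The array error given beside a difference is the SD that measured probe sets of the same gene showed among themselves at that signal, 0.32 for the dimmest and 0.16 for the brightest, and it holds no spread between mice. Crtc1 itself read 85.1 in the Crtc1 KO pool and 631.3 in the WT pool by its brightest probe set, a difference of -2.89 with an array error of 0.26. A second measured Crtc1 probe set read 31.5 (KO) and 209.2 (WT), so the direction was that of the labels. The position of these probe sets in the gene, relative to the part that was altered, is not known here. The median of all probe sets was 54.4 in the KO array and 52.2 in the WT array. Of 15 hypothalamic markers 10 were measured, with 5 higher and 5 lower in the KO pool and a median of -0.01. Agrp, Crh, Ghrh, Sim1 and Nkx2-1 were not among the measured ones. By brightest probe set the measured markers ran from -0.35 for Pomc to 0.56 for Avp. Of the 10, 5 differed by more than their array error, against 25.2% of all measured genes. Of 9 measured cortex and hippocampus markers 6 did so. Those markers had a median of 0.13, with 6 higher, 3 lower and 1, Neurod6 at 0.65, past 1.5-fold. The lower ones were Emx2 at -0.46 (array error 0.32), Neurod2 at -0.38 (0.23) and Camk2a at -0.28 (0.16), each beyond its array error. The summed signal of the cortex and hippocampus markers was 7512.5 in the KO pool and 7799.9 in the WT pool. Whether the dissections of the pools matched was not tested.

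None of the 9 measured member genes differed by 1.5-fold or more between the pools by its brightest probe set, where 3.50% of the 11312 measured genes did. By their brightest probe sets in the main setting 4 genes read higher in the knockout pool (Creb3l1, Cebpd, Cebpb and Atf4), each by more than its array error. In that setting 5 read lower (Creb3l2, Atf6, Creb3, Atf5 and Atf2), each by less than its array error. This split depended on the setting. Cebpd was at 0.30 with median centring and at 0.31 with quantile normalization, under its array error of 0.32. With averaged probe sets Atf4 was at 0.14 (array error 0.16) and Cebpb at 0.04 (0.26). Over all measured genes 25.2% differed by more than their array error in either direction, and 50.9% read higher in the knockout pool. In RNA of whole tissue, a change in the cells of a type and a change in RNA per cell cannot be told apart. The median difference of the 9 genes was 0.00, and that of all measured genes was also 0.00. The members' median depended on the choice of probe sets, since it was 0.29 without probe sets whose names end in _s_at, _x_at or _a_at, 0.24 without _s_at and _x_at ones and 0.13 with averaged probe sets, where all measured genes gave 0.01, 0.00 and 0.01. Leaving out _s_at and _x_at probe sets changed the value of Creb3 alone, from -0.03 to 0.55. Leaving out _a_at ones too removed Atf5, so that the 0.29 is over 8 genes. The median size of the difference, sign disregarded, was 0.10 for the members and 0.13 for all measured genes. By probe set, 18 of the 23 were measured, 10 of them higher in the KO pool and 8 lower. Of the 18, 6 were at least 1.2-fold apart, against 26.6% of all measured probe sets, and 1, a dim one of Atf6, passed 1.5-fold, against 4.79%. None reached 2-fold, against 0.613%. By gene, Creb3l1, Cebpd and Cebpb were at least 1.2-fold apart, 3 of 9 against 21.9% of all measured genes, and none reached 2-fold, against 0.433%.

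**Figure D1:**
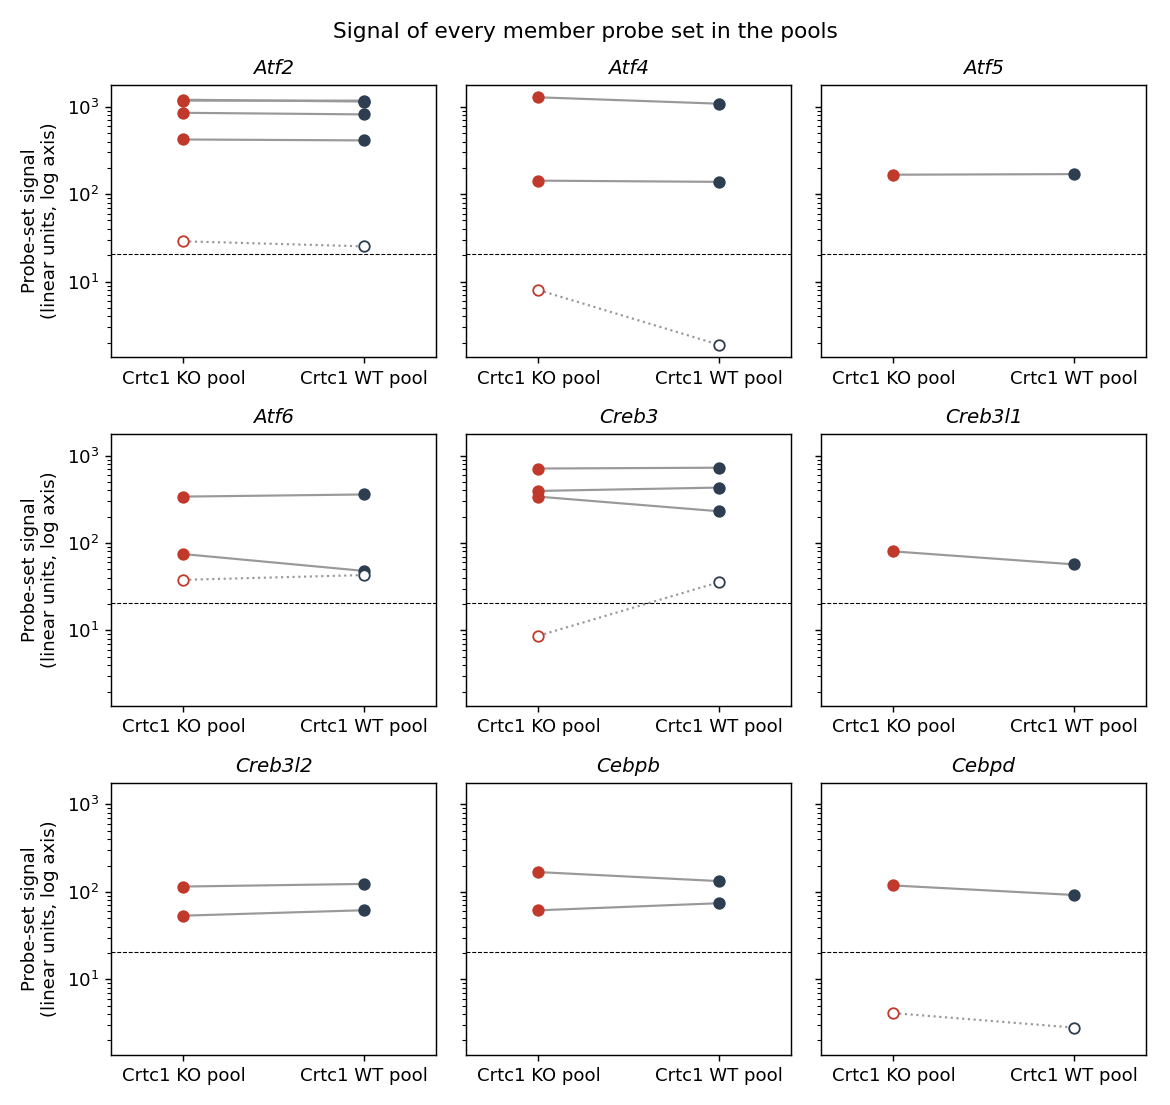
Signal of each of the 23 member probe sets (linear units on a log axis) in the Crtc1 KO pool, left, and the Crtc1 WT pool, right, 1 panel per gene. Filled points joined by solid lines were measured, open points joined by dotted lines lay below the limit, and the dashed line is the floor of the knockout array, 20.5. Most lines are nearly level, and the steepest measured ones are those of Atf6 at 74.7 (KO) against 48.0 (WT) and Creb3 at 339.1 (KO) against 230.9 (WT).

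Repeat readings of one gene often went opposite ways. Of the 6 member genes with at least 2 measured probe sets, only Atf4 and Creb3l2 had all of them on the same side of 0. Atf2 was left out of these by 1 probe set alone, which read 1175.5 (KO) and 1175.7 (WT), a difference of 0.00. Over the 5199 genes of the array with at least 2 measured probe sets, 42.5% had one sign throughout, so such disagreement was common. Among the 3100 genes with exactly 2 the share was 54.5%. The distance between the highest and the lowest difference of a gene was 0.72 for Atf6, 0.68 for Creb3 and 0.61 for Cebpb. It was 0.20 for Atf4, 0.11 for Creb3l2 and 0.07 for Atf2.

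**Figure D2:**
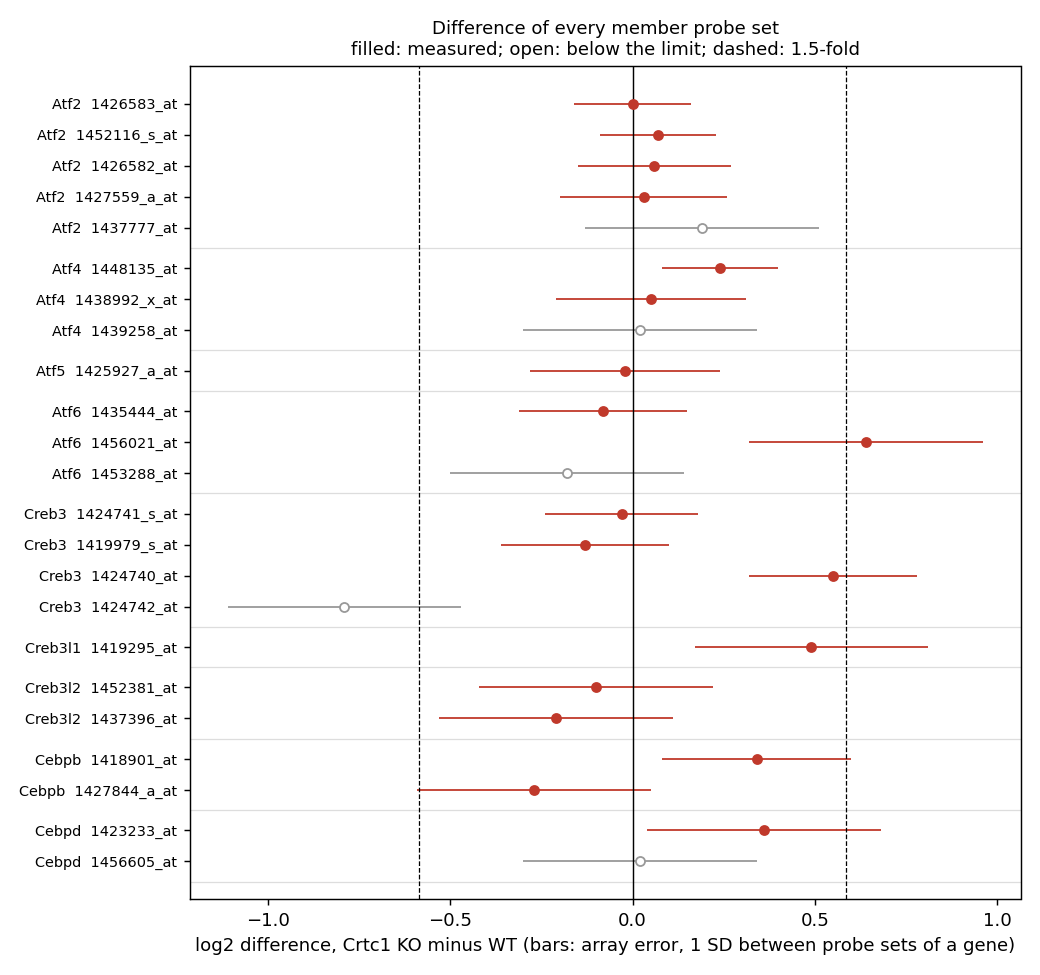
The log2 difference of each of the 23 member probe sets, Crtc1 KO minus WT, on the horizontal axis, with bars of 1 array error. Filled points were measured, open points were not, and dashed lines mark 1.5-fold. The probe sets of Atf2 cluster at 0, while Atf6, Creb3 and Cebpb have measured probe sets on both sides of it.

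Atf2, a CRE-binding factor activated by the stress kinases p38 and JNK, was the most closely repeated member. Its probe set 1426583_at read 1175.5 in the Crtc1 KO pool and 1175.7 in the WT pool, a difference of 0.00 (array error 0.16). Probe set 1452116_s_at read 1203.8 (KO) and 1148.0 (WT), probe set 1426582_at read 853.1 (KO) and 818.0 (WT), and probe set 1427559_a_at read 422.4 (KO) and 412.4 (WT). These 4 readings of the same pools lay between 0.00 and 0.07, all within their array errors. The remaining one, 1437777_at, was dim, at 28.9 in the Crtc1 KO pool and 25.3 in the WT pool, and was not counted as measured.

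The closest relative of Atf2 differed more than Atf2 did. Atf7, which encodes a CRE-binding factor of the same subgroup, read 48.4 in the Crtc1 KO pool and 84.1 in the WT pool, 1.74-fold lower (log2 difference -0.80, array error 0.32). This rests on 1 dim probe set with no repeat reading. Creb5, the third gene of that subgroup, was not measured. Of 22 listed kinase genes that act on ATF1, ATF2 or C/EBP proteins 16 were measured, 10 higher and 6 lower, with a median of 0.03 and none past 1.5-fold. The largest differences among them were those of Mapk12, a p38 kinase gene, at 0.37 (array error 0.32), Mapk8, which encodes JNK1, at -0.29 (0.21), Map2k6, which encodes an activator of p38, at 0.27 (0.26), and Mapk14, which encodes p38 alpha, at 0.26 (0.21). The probe sets of Mapk8 and of Mapk14 did not share one sign, and the mean over those of Mapk14 was -0.04.

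Atf4 was higher in the knockout pool by a small margin. This gene encodes the main effector of the integrated stress response. Its brightest probe set, 1448135_at, read 1283.5 in the Crtc1 KO pool and 1085.0 in the WT pool, which is 1.18-fold higher (0.24, array error 0.16). Among measured probe sets as bright, 7.57% differed by as much or more in either direction. The second measured probe set, 1438992_x_at, whose name marks probes that can match other transcripts, read 142.8 (KO) and 138.4 (WT), a difference of 0.05 within its array error of 0.26. The remaining one, 1439258_at, read 8.0 (KO) and 1.9 (WT), below the floor on both arrays, and gives no order. Atf5, a stress-induced factor closely related to ATF4, read 167.0 in the Crtc1 KO pool and 169.7 in the WT pool by its single probe set (-0.02, array error 0.26).

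Genes that ATF4 activates showed no common direction. Of 32 listed targets 24 were measured, 12 higher and 12 lower in the knockout pool, with a median of 0.01 and none past 1.5-fold. Chac1, which encodes a glutathione-degrading enzyme, read 192.1 in the Crtc1 KO pool and 153.4 in the WT pool, 1.25-fold higher (0.32, array error 0.26). Shmt2, which encodes the mitochondrial serine hydroxymethyltransferase, was 1.32-fold lower (-0.40, 0.26), with probe sets of opposite sign. Slc1a4, a neutral amino acid transporter gene, differed by -0.31 and Psph, whose enzyme completes serine synthesis, by -0.27, each beyond its array error of 0.23. The probe sets of Slc1a4 had opposite signs and averaged -0.09, and Psph had 1 measured probe set. The median of this list was -0.05 with median centring, under which the median of all measured genes was -0.06.

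Further targets are named here after their values were seen. Asns, which encodes asparagine synthetase, read 1570.5 in the Crtc1 KO pool and 1629.1 in the WT pool (-0.05). Ddit3, which encodes the pro-apoptotic bZIP factor CHOP, read 259.7 (KO) and 248.5 (WT), a difference of 0.06, and Psat1, an enzyme gene of serine synthesis, read 947.4 (KO) and 976.3 (WT), a difference of -0.04. All 3 were within their array errors of 0.16, 0.26 and 0.21. Of the bright targets, Sars and Aars, which encode tRNA synthetases for serine and alanine, differed by -0.17 and -0.16. Slc3a2, an amino acid transporter subunit gene, differed by -0.15. Nars and Gars, 2 tRNA synthetase genes as bright, differed by 0.08 and 0.04. The array error was 0.16 for each of these. Of the dimmer tRNA synthetase genes, Eprs differed by 0.24 (array error 0.23), Tars by 0.21 (0.23) and Wars by -0.07 (0.21). The probe sets of Sars, Nars, Eprs and Wars had opposite signs within each gene. Trib3, Fgf21 and Gdf15 were among the listed targets that were not measured.

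Upstream of ATF4, 13 of 15 listed genes of the integrated stress response were measured. They were genes of kinases and phosphatase subunits that act on eIF2, of subunits of its exchange factor eIF2B, and Impact, Gcn1 and Nck1. In the knockout pool 5 were higher and 8 lower, with a median of -0.08, and none passed 1.5-fold. Eif2ak1, which encodes the haem-regulated eIF2 kinase, differed by -0.37 (array error 0.23) where it was brightest, and its probe sets averaged -0.08. Gcn1, whose protein activates the amino acid sensing kinase GCN2, differed by -0.28 (0.23). Eif2b3 and Eif2b5, which encode subunits of eIF2B, differed by -0.24 (0.26) and -0.18 (0.23), less than the array error in each.

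**Figure D3:**
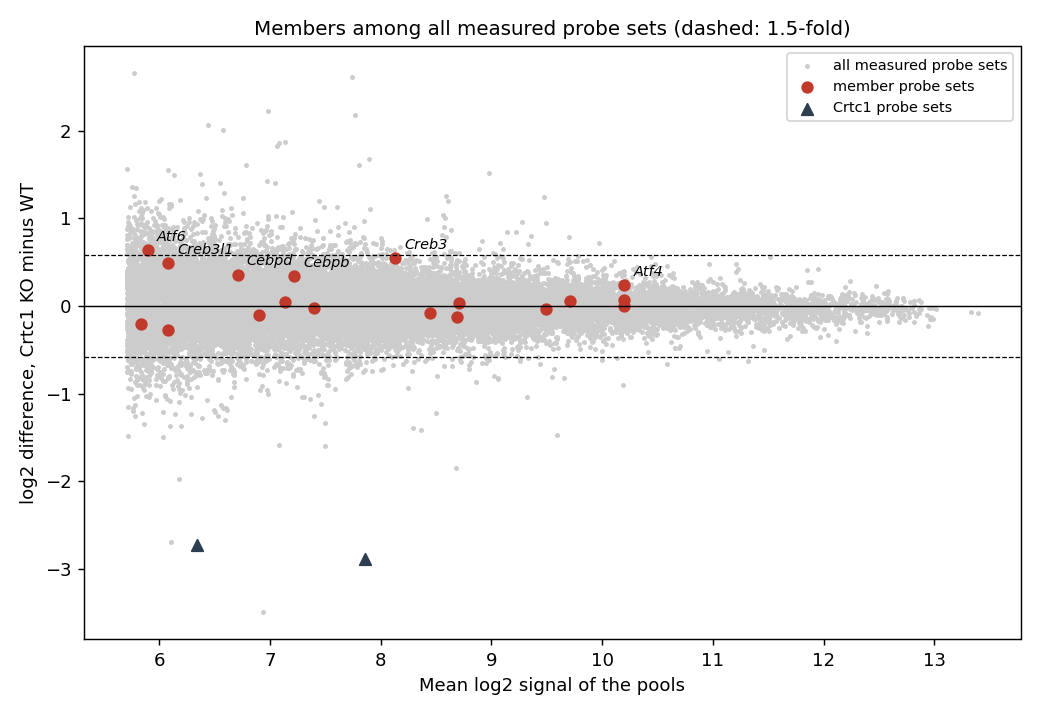
The log2 difference, Crtc1 KO minus WT, against the mean log2 signal of the pools for all 22519 measured probe sets (grey), the 18 measured member probe sets (red) and the 2 measured Crtc1 probe sets (triangles), with dashed lines at 1.5-fold. The 6 member probe sets that differed by more than their array error carry gene names, and all 6 lie above 0. They are 6 of 18, and 27.8% of all measured probe sets differed by more than their array error in either direction. Of all measured probe sets 51.6% were higher, and the share above 0 among those beyond their array error was not counted. A Creb3 probe set below the limit, not shown, differed by -0.79 (array error 0.32). The spread of the grey points narrows towards high signal.

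Atf6, the ER membrane factor that induces chaperone genes when unfolded proteins accumulate, had no settled direction. Its brightest probe set, 1435444_at, read 339.6 in the Crtc1 KO pool and 359.2 in the WT pool (-0.08, array error 0.23). Probe set 1456021_at read 74.7 (KO) and 48.0 (WT), which is 1.56-fold higher (0.64, array error 0.32). That dimmer reading is the member probe set past 1.5-fold named above, and among measured probe sets as dim 8.55% differed by as much or more. With median centring, quantile normalization, loess, a floor at the 50th percentile or a pseudocount of 16 it was under 1.5-fold, down to 0.50. The remaining probe set, 1453288_at, was below the limit at 37.9 in the Crtc1 KO pool and 43.0 in the WT pool.

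All listed genes of the ER chaperones and of ER-associated degradation, many of them induced by ATF6, were measured. Of 24 genes 14 were higher and 10 lower in the knockout pool, the median was 0.02, and none passed 1.5-fold. Hspa5, which encodes the chaperone BiP and was singled out after its values were seen as the best known target, read 2705.1 in the Crtc1 KO pool and 2480.5 in the WT pool (0.13, array error 0.16). The largest difference was that of Pdia4, a disulfide isomerase gene, at 169.3 (KO) against 253.2 (WT), a difference of -0.58 with an array error of 0.26. Syvn1 and Herpud1, which encode the ubiquitin ligase HRD1 and a partner of it in ER-associated degradation, differed by -0.33 and -0.31 (array error 0.21 each), with both probe sets of each gene lower. Os9, a lectin gene of the same pathway, also differed by -0.31 (0.21), and its probe sets averaged -0.57. Derl3, which encodes a derlin, differed by 0.33 (0.32).

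The genes that activate or bind ATF6 and CREB3 had a median near 0. Of 6 measured genes 4 were higher and 2 lower, with a median of 0.06, which was -0.07 when the probe sets of a gene were averaged. Mbtps1 and Mbtps2, which encode the Golgi site 1 and site 2 proteases, differed by 0.09 (array error 0.21) and 0.26 (0.26). Nucb1, which encodes a calcium-binding Golgi protein reported to restrain ATF6 cleavage, differed by -0.30 (0.21). Hcfc2, a relative of the CREB3-binding host cell factor gene Hcfc1, differed by 0.37 (0.23), and all 3 of its probe sets were higher. Atf6b, the paralog of Atf6, differed by 0.07 (0.26).

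Creb3, which encodes the factor also known as Luman, was read differently by its probe sets. The brightest, 1424741_s_at, read 711.5 in the Crtc1 KO pool and 727.1 in the WT pool (-0.03, array error 0.21). Probe set 1419979_s_at read 394.3 (KO) and 430.8 (WT), a difference of -0.13 with an array error of 0.23. Probe set 1424740_at read 339.1 (KO) and 230.9 (WT), which is 1.47-fold higher (0.55, array error 0.23), and among measured probe sets as bright 1.86% differed by as much or more. The names of the first and second mark probes that can match several transcripts, and that of the third does not. The remaining one, 1424742_at, was below the limit, at 8.7 and under the floor in the knockout pool and at 35.5 in the wild-type pool. The gene thus differed by -0.03 by its brightest probe set, by 0.13 as the mean of its measured probe sets, and by 0.55 without those that can match several transcripts. Which transcripts each probe set reads was not tested.

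Creb3l1, which encodes the ER factor OASIS, had the largest difference of the members by brightest probe set. Its single probe set, 1419295_at, read 80.2 in the Crtc1 KO pool and 57.0 in the WT pool, 1.41-fold higher (0.49, array error 0.32). Of all measured genes 5.88% differed by as much or more, and of measured probe sets as dim 16.6% did. The difference lay between 0.40 and 0.49 in the 10 settings that measured the gene. The filter at the 70th percentile left it out.

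In the rat hypothalamus CREB3L1 has been described as an activator of the vasopressin gene and of the prohormone convertase gene Pcsk1. Here Avp, the vasopressin gene, read 1690.4 in the Crtc1 KO pool and 1148.9 in the WT pool, 1.47-fold higher (0.56, array error 0.16). Oxt, the oxytocin gene of the neighbouring magnocellular neurons, read 969.2 (KO) and 695.3 (WT), a difference of 0.48 with an array error of 0.21. Pcsk1 read 134.1 (KO) and 143.5 (WT), a difference of -0.10 with an array error of 0.26. Avp, Oxt and Pcsk1 each had 1 measured probe set. The list of linked genes held only 2, Avp and Pcsk1, and was chosen with earlier results of these data known. Whether Creb3l1 has a part in these values was not tested.

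Creb3l2, a close relative of Creb3l1 whose protein induces genes of the COPII coat in cartilage, was lower by both of its probe sets and within the array error of 0.32 by each. Probe set 1452381_at read 115.0 in the Crtc1 KO pool and 123.2 in the WT pool (-0.10). Probe set 1437396_at read 53.4 (KO) and 61.6 (WT), a difference of -0.21. The COPII coat and other early secretory genes were measured for 16 of 17 listed genes, 10 higher and 6 lower in the knockout pool, with a median of 0.01 and none past 1.5-fold. Sec24d, which encodes a cargo-binding COPII subunit, differed by 0.24 (array error 0.26) and Sec16a, which organises ER exit sites, by -0.21 (0.21). Gbf1, a Golgi exchange factor gene, and Sec13, a COPII coat gene, each differed by -0.16, within array errors of 0.21 and 0.23. Creb3l3 and Creb3l4, the remaining genes of the CREB3 group, were not measured.

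**Figure D4:**
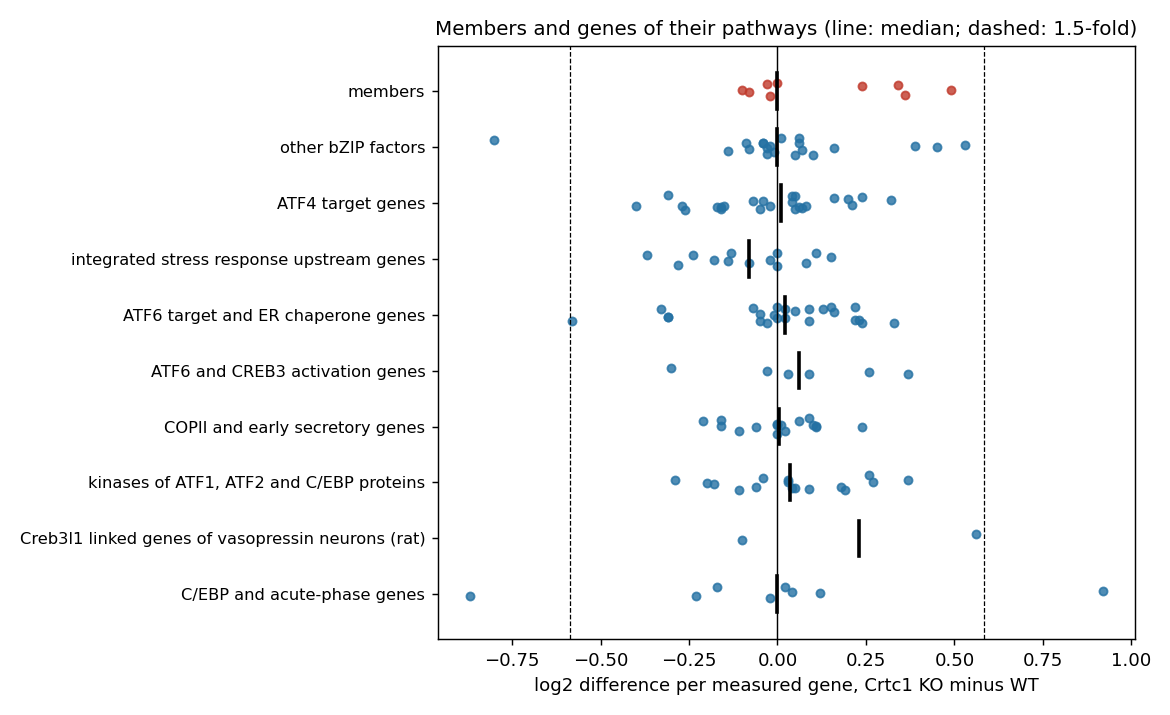
The log2 difference of each measured gene, Crtc1 KO minus WT, for the 9 members (red) and for the genes of 9 pathway lists (blue), with the median of each row as a black line and dashed lines at 1.5-fold. Medians lie between -0.08 and 0.06, except that of the 2 vasopressin neuron genes at 0.23, and the genes past 1.5-fold are Atf7, Cp and Serpina3n.

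Cebpb and Cebpd encode C/EBP factors that act in fat cell differentiation, in the acute-phase response and, in the brain, in glia. Cebpb probe set 1418901_at read 168.3 in the Crtc1 KO pool and 132.8 in the WT pool, 1.27-fold higher (0.34, array error 0.26). Its second probe set, 1427844_a_at, read 61.5 (KO) and 74.1 (WT), a difference of -0.27 within its array error of 0.32, and the mean of both was 0.04. Cebpd read 118.3 in the Crtc1 KO pool and 92.1 in the WT pool by 1423233_at, 1.28-fold higher (0.36, array error 0.32). Its second probe set, 1456605_at, read 4.1 (KO) and 2.8 (WT), below the floor on both arrays. Of measured genes 13.9% differed by as much as Cebpb or more, and 12.5% by as much as Cebpd or more.

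Among the other C/EBP genes, Cebpa read 140.3 in the Crtc1 KO pool and 97.0 in the WT pool by its single probe set, 1.45-fold higher (0.53, array error 0.32). Cebpg, which encodes a C/EBP protein without a strong activation domain, read 269.0 (KO) and 272.6 (WT) by its brighter probe set (-0.02, array error 0.23), and its measured probe sets had opposite signs. Cebpe was not measured. Of 10 measured microglial markers 7 were higher in the knockout pool and 3 lower, where 50.9% of all measured genes were higher. Their median was 0.18, 4 of the 10 differed by more than their array error, and their summed signal was 4921.4 in the Crtc1 KO pool and 4377.0 in the WT pool, with no measured marker at the floor. The brightest of these markers, Csf1r, read 2000.5 (KO) and 1710.8 (WT), a difference of 0.23. Its other measured probe sets differed by 0.09 and -0.02. Astrocyte markers had a median of 0.05, which was as low as -0.01 under other settings, with 7 of 10 higher and a summed signal of 20636.7 in the Crtc1 KO pool and 20057.5 in the WT pool. Choroid plexus markers had the marker median farthest from 0, at -0.31, with 9 of 11 lower, 8 beyond their array error, and a summed signal of 9624.1 in the Crtc1 KO pool and 10831.4 in the WT pool. Endothelial markers had a median of 0.06, with 5 of 9 higher and a summed signal of 2339.0 in the Crtc1 KO pool and 1922.2 in the WT pool, and one of them, Plvap, read 427.2 (KO) and 133.3 (WT). The part of any of these cell types in the C/EBP values was not tested.

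Acute-phase genes and genes of cytokine and glucocorticoid signalling linked to C/EBP factors were measured for 8 of 15 listed genes. In the knockout pool 4 were higher and 4 lower, with a median of 0.00, and they held a large difference each way. Serpina3n, a protease inhibitor gene of reactive astrocytes, read 344.9 in the Crtc1 KO pool and 629.2 in the WT pool, 1.82-fold lower (-0.87, array error 0.23) by 1 probe set. Cp, which encodes the copper-binding plasma protein ceruloplasmin, read 132.3 (KO) and 70.1 (WT) by its brightest probe set, 1.89-fold higher (0.92, array error 0.32). Of the other 3 measured Cp probe sets, 2 were higher by 0.36 and 0.70, and 1 differed by -0.77, so the mean was 0.30. Il6ra, which encodes the interleukin-6 receptor, and Fkbp5, a glucocorticoid-induced gene, differed by -0.23 (0.32) and -0.17 (0.23), less than the array error in each. Lcn2, Saa3, Hp, Orm1, C3, Socs3 and Il1r1 were not measured.

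Across the remaining bZIP genes, outside the Fos and Jun families, 20 of 28 were measured, 10 higher and 10 lower in the knockout pool, with a median of 0.00. Atf7, described above, was the one past 1.5-fold. After Atf7 and Cebpa, the largest differences were those of Nfe2l2, which encodes the oxidative stress factor NRF2, at 264.2 (KO) against 193.3 (WT), a difference of 0.45 with an array error of 0.26, and Nfil3, which encodes a repressor that competes with clock-controlled bZIP activators, at 93.0 (KO) against 71.1 (WT), a difference of 0.39 with an array error of 0.32, both from 1 probe set. Xbp1, whose spliced mRNA encodes an activator of the unfolded protein response, read 1614.8 in the Crtc1 KO pool and 1445.9 in the WT pool (0.16, array error 0.16). Its 4 probe sets did not share one sign, and the deposited values do not separate the spliced form. Atf3, the ATF gene most readily induced by stress, was below the limit, with 14.6 in the Crtc1 KO pool and 4.9 in the WT pool, both under the floor.

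**Figure D5:**
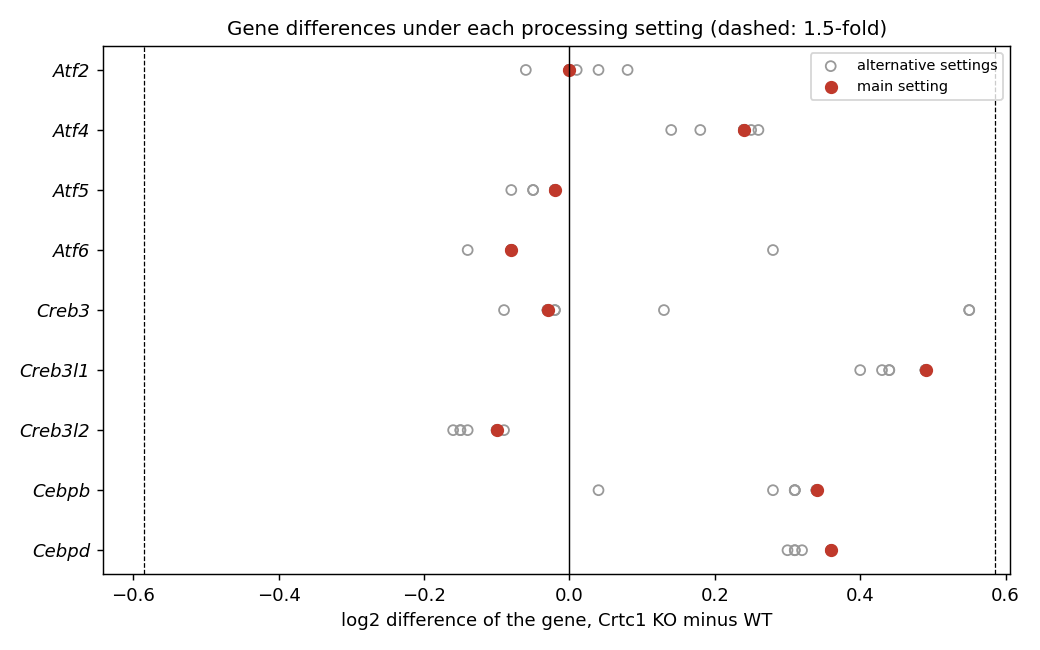
The log2 difference of each measured member gene, Crtc1 KO minus WT, in the main setting (red) and under up to 11 alternative settings (grey circles), with dashed lines at 1.5-fold. No value passes 1.5-fold. Atf4, Creb3l1, Cebpb and Cebpd lie above 0 in all settings that measured them, Atf5 and Creb3l2 lie below 0, and Atf2, Atf6 and Creb3 lie on both sides.

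Over these settings the sign was kept by 6 of the 9 genes. Atf4 lay between 0.14 and 0.26, Cebpd between 0.30 and 0.36, and Cebpb between 0.04 and 0.34, the lowest when its probe sets were averaged. Creb3l2 lay between -0.16 and -0.09 and Atf5 between -0.08 and -0.02. Atf6 ranged from -0.14 to 0.28 and Creb3 from -0.09 to 0.55, the upper end in each case through the choice of probe sets. The values of Atf2 lay between -0.06 and 0.08. Median centring shifted all genes alike, with a median of -0.06 over the measured ones, and the list medians of ATF4 targets, ER chaperones, COPII genes and kinases were below 0 with it.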

How the data were processed

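RNA pooled from 3 mice per genotype was hybridised to 1 Affymetrix array each, per the series design text and the labels. Per the labels' protocols, 30 ug of total RNA went into each biotin-labelled cRNA. The deposited values are linear signal intensities, 1 per probe set and array. Their trimmed mean, without the lowest and highest 2%, was 200.0 on both arrays, so the authors' intensities had been scaled by 1 factor per array. The labels do not state the summary algorithm. Such scaling leaves dim values noisy.

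Of 45101 probe sets, 64 controls were left out. Gene names come from the platform annotation at GEO, and Entrez IDs gave the current symbols in RefSeq (GRCm38.p6). The array medians differed by 0.06 (log2), under the limit of 0.1, so the deposited scaling was kept. Values were floored at the 30th percentile and put on the log2 scale, and probe sets at or above the median mean signal counted as measured (Python 3.11.15, pandas 2.3.3, statsmodels 0.14.6). In simulated data the steps recovered planted 2-fold changes in brighter genes, made equal in every probe set of a gene. Recovery of smaller changes, of changes in dim genes or of changes on which probe sets disagree was not simulated. With 1 array per group no test was possible, and precision is limited by the number of arrays.

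The members and gene lists were chosen with earlier results of these data known. Named genes were all members, Crtc1, and from each pathway list the genes past 1.5-fold and the up to 4 with the largest difference. Lists of cell type markers were described by counts and medians, with few markers named. Those not described above, of oligodendrocytes and of meninges and fibroblasts, had medians of 0.00 and -0.05. Closest relatives of members, and genes so described in the text, were added. Alternatives covered scaling, floor, filter, choice of probe sets and fold. A planned comparison of the members' proteins was not run.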

Additional observations from a re-analysis of the deposited data

How the results depend on the processing

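No paired analysis was possible because each genotype had 1 pooled array. No member gene passed 1.5-fold in the main setting, in the 11 alternatives for scaling, floor, filter and probe sets, or at 2-fold, while 3 passed 1.2-fold. The count of member probe sets past 1.5-fold, 1 in the main setting, was 0 with median centring, quantile normalization, loess, a floor at the 50th percentile, a pseudocount of 16 and a filter at the 70th percentile, 2 with no filter, 6 at 1.2-fold and 0 at 2-fold. The members' median of 0.00 was 0.29 without probe sets whose names end in _s_at, _x_at or _a_at, 0.24 without _s_at and _x_at, and 0.13 with averaged probe sets. Leaving out probe sets by name changed the value of Creb3 alone, and the wider exclusion also removed Atf5. The members whose probe sets shared one sign numbered 2 of 6, and 1 of 6 with median centring, 0 of 2 with the filter at the 70th percentile, 1 of 3 without _s_at, _x_at and _a_at probe sets and 1 of 4 without _s_at and _x_at. Such members numbered 3 of 6 with quantile normalization and with loess, and 3 of 7 with no filter. Of the list medians, ATF4 targets were at -0.05 and ER chaperones at -0.04 with median centring. With averaged probe sets the activation genes were at -0.07 and the kinases at -0.04. With the filter at the 70th percentile the vasopressin neuron list, reduced to Avp, was at 0.56 and endothelial markers were at 0.34. Over all measured genes, 233 were higher and 163 lower past 1.5-fold, but 165 and 229 with median centring, 185 and 197 with quantile normalization and 188 and 197 with loess. Dim probe sets limit what can be seen of Creb3l1, Cebpd and the dimmer Atf6 probe set, where the array error was 0.32.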

Other observations

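The promoter letters searched for the members were also counted over all 9172 measured genes with a RefSeq window, as a description with no test and chosen after the data were seen. Of these genes, 331 held the full CRE, TGACGTCA. Their median difference between the knockout and wild-type pools was 0.00, as it was over all genes with a window. Past 1.5-fold, 5 of the 331 were higher and 6 lower in the knockout pool, 3.32% in all against 3.55% of genes with a window. With median centring 1 was higher and 7 lower, and with quantile normalization and with loess 1 was higher and 6 lower, while all genes with a window gave 130 and 186, 148 and 164, and 150 and 164. The core TGACG, shown above for the members, was in the windows of 3307 measured genes, of which 44 were higher and 43 lower past 1.5-fold, or 2.63%, with a median of 0.00, and with median centring 19 and 60, with quantile normalization 28 and 52 and with loess 30 and 52. The letters TGATGNAA of the ATF4 composite site were in the windows of 243 measured genes, of which 3 were higher and 6 lower past 1.5-fold, with a median of -0.01.

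Genes with the letters TTGCNNAA of a C/EBP site, 871 in all, were the one motif group with more genes higher than lower past 1.5-fold under each of the 4 scalings. In the deposited scaling 22 were higher and 7 lower in the knockout pool, or 2.53% and 0.804%, against 2.07% and 1.48% of all genes with a window. In both directions together this was 3.33%, close to the 3.55% of all genes with a window. Median centring gave 16 and 7, and quantile normalization and loess each gave 19 and 7. Their median difference was 0.01, the motif was in 10.8% of all windows on either strand, and no window of a member held it.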
